A study of Mus musculus with 6 samples.

Results

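The genes of the platelet-derived growth factor (PDGF) family were followed in mouse embryonic fibroblasts (MEFs), connective-tissue cells grown out of embryos. The set held the 7 genes Pdgfra, Pdgfrb, Pdgfrl, Pdgfa, Pdgfb, Pdgfc and Pdgfd, chosen by symbol from the 55487 genes listed for each library, and all 7 passed the filter on low counts. RNA of untreated cells was sequenced from wild-type (WT) and knockout (KO) cultures at passages 2, 3 and 4, a passage being 1 round of detaching and replating, and each combination of genotype and passage is represented by 1 library. The title of the series places the cells in work on mTORC1 signalling, the CCL24-CCR3 chemokine axis and sarcoid granulomas. The labels name neither the deleted gene nor the strain, the age of the embryos or the number of cultures. The 3 passages of a genotype may therefore come from 1 culture, and p-values measure only the spread between these libraries.

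PDGFs are dimeric ligands that drive the division and migration of fibroblasts and other mesenchymal cells. PDGF-A acts through the receptor PDGFR-alpha and PDGF-B through both PDGFR-alpha and PDGFR-beta, while PDGF-C and PDGF-D are secreted in a latent form and bind a receptor after proteases have removed their CUB domains. The receptors are tyrosine kinases of the cell surface, and PDGFR-alpha is widely used as a marker of fibroblasts and their progenitors. In many tissues epithelial or endothelial cells make the ligands and mesenchymal cells carry the receptors.

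Library totals ran from 24853121 to 67760880 expected counts, the deepest being the KO library of passage 3. Genotype was taken from the titles, because the genotype tag of the KO-titled libraries of passages 3 and 4 reads WT. Xist, expressed from the inactive X chromosome of female cells, had 417 to 567 CPM (counts relative to the library total, TMM-scaled between libraries) in KO and 0.118 to 0.301 CPM in WT. Ddx3y of the Y chromosome had 73.4 to 88.0 CPM in WT and 0 to 0.731 CPM in KO. Sex and genotype cannot be told apart in any WT and KO comparison given here. All 10 fibroblast markers examined were expressed in every library. Their summed level was 21538.95 to 26271.9 TPM (transcript abundance scaled for gene length and to 1 total for all libraries) in WT and 14354.49 to 17500.61 TPM in KO.

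Both signalling receptors were abundant in the fibroblasts, and the ligands were expressed at lower levels. On the TPM scale the order of mean levels in WT was Pdgfra (228 ± 37.8), Pdgfrb (201 ± 27.0), Pdgfrl (43.3 ± 11.1), Pdgfc (42.2 ± 5.70), Pdgfa (23.5 ± 6.47), Pdgfd (19.1 ± 4.03) and Pdgfb (1.29 ± 0.906; SD, n = 3). In that order the ranges of Pdgfra and Pdgfrb overlapped, as did those of Pdgfrl and Pdgfc and those of Pdgfa and Pdgfd. The other neighbours were separated in all 3 WT libraries. In KO the order of mean TPM was Pdgfrb (172 ± 20.8), Pdgfra (90.1 ± 5.11), Pdgfc (50.8 ± 12.4), Pdgfa (46.7 ± 9.86), Pdgfd (17.8 ± 7.15), Pdgfrl (17.4 ± 4.61) and Pdgfb (1.56 ± 0.723; SD, n = 3). Here only the neighbours Pdgfc and Pdgfa, and Pdgfd and Pdgfrl, had overlapping ranges. Pdgfrb exceeded Pdgfra in 3 of 3 KO libraries and in 1 of 3 WT libraries, that of passage 4.

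**Figure D1:**
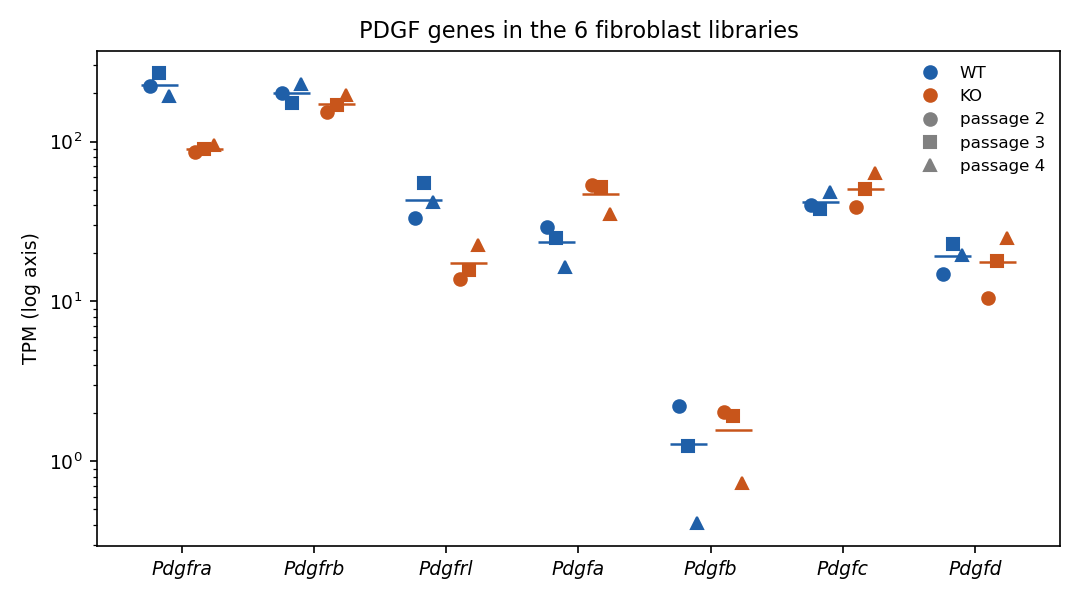
TPM (log axis) of the 7 PDGF genes in each library. Colours separate WT and KO, symbols mark the passage and horizontal lines are group means (n = 3). The KO points of Pdgfra and Pdgfrl lie below all WT points, those of Pdgfa lie above them, and Pdgfb is the lowest gene in every library.

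The comparison of KO with WT asks which transcripts differ between the genotypes. Of the 7 genes, 2 were called by the quasi-likelihood test of edgeR at an adjusted p under 0.05, Pdgfra and Pdgfrl, and both were lower in KO. Over all 16603 genes tested, 2.48% were called, 1.55% as lower and 0.934% as higher. With passage as a block, which treats libraries of the same passage as pairs, 3 of the 7 were called, the third being Pdgfa, higher in KO, against 11.1% of all genes (4.69% higher and 6.37% lower). Between genotypes the CPM ranges did not overlap for 4 of the 7 genes (Pdgfra, Pdgfrb and Pdgfrl lower and Pdgfa higher in KO), as for 27.2% of all genes tested (14.1% lower and 13.1% higher in KO). Of the 412 genes called without the block 155 were higher and 257 lower, and limma on log2(TPM + 1) gave 219 higher and 168 lower.

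Pdgfra encodes PDGFR-alpha (ENSMUSG00000029231, GRCm38 chromosome 5, 75152292 to 75198215, plus strand). Its level in WT was 693, 970 and 620 CPM at passages 2, 3 and 4. In KO it was 284, 262 and 257 CPM at the same passages. The highest KO library was thus well below the lowest WT library, and the 3 KO values lay closer together than the 3 WT values. The mean fell from 761 ± 185 to 268 ± 14.7 CPM (SD, n = 3), a log2 change of -1.51 ± 0.17 SE (edgeR adjusted p = 0.0107). Within passages the KO level was 0.41, 0.27 and 0.414 of the WT level on the CPM scale. Without the KO library of passage 3 the log2 change was -1.49 (adjusted p = 0.0765), and without both libraries of passage 2 it was -1.62 (adjusted p = 0.0703), so the call was lost in both while the size was similar. Leaving out any of the other 5 libraries kept the call. Antisense genes that overlap Pdgfra had at most 0.0761% of its counts.

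The 250 bases before the RefSeq start of Pdgfra (GRCm38.p6, plus strand, chr5:75152001-75152250) are shown because it is the signalling receptor gene that was called. The GC content was 54.4%, against a median of 52.4% over 32851 promoter windows of the same length.
Pdgfra: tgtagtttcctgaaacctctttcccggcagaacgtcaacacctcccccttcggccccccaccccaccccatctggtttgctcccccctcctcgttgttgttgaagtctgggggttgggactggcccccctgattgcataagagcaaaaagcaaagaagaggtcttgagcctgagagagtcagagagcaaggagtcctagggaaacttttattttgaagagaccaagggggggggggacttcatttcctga
Both strands were searched for the GC box GGGCGG, the TATA box TATAAA, the CCAAT box CCAAT, the E-box CACGTG, the AP-1 site TGANTCA, the TEAD site GGAATG, the EGR site GCGGGGGCG and the FOX site TGTTTAC, a set chosen after the data had been seen. None of these letters occurs in the Pdgfra window, so no base is in capitals. In the same order they occur in 32.7%, 12.4%, 33.8%, 6.02%, 6.75%, 12.6%, 2.57% and 3.17% of all windows. The EGR letters do not hold the GC box letters, and overlaps between other motifs were not removed.

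Pdgfrl encodes a secreted receptor-like protein related to the extracellular part of the PDGF receptors, without a kinase (ENSMUSG00000031595, chromosome 8, 40926212 to 40990785, plus strand). It had 26.6, 53.2 and 37.4 CPM in WT at passages 2, 3 and 4. In KO it had 12.3, 12.8 and 17.01 CPM. All 3 KO libraries lay below all 3 WT libraries, and in both Pdgfrl and Pdgfra the WT library of passage 3 was the highest. The mean fell from 39.1 ± 13.4 to 14.1 ± 2.57 CPM (SD, n = 3, log2 -1.48 ± 0.26 SE, edgeR adjusted p = 0.0372). The call was lost when any 1 KO library was left out (edgeR adjusted p = 0.103, 0.213 and 0.0598 for passages 2, 3 and 4). It was also lost without the WT library of passage 3 (0.116) and without both passage 2 libraries (0.0734). In these fits the log2 change stayed between -1.63 and -1.19. Over all genes tested they called 206, 38, 230, 45 and 59 in the same order, against 412 with all 6 libraries.

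Pdgfrb encodes PDGFR-beta, the receptor of pericytes and many fibroblasts (ENSMUSG00000024620, chromosome 18, 61045150 to 61085061, plus strand). At passages 2, 3 and 4 the WT libraries held 595, 613 and 745 CPM and the KO libraries 499, 497 and 536 CPM. The groups did not overlap on this scale, but the difference was small, from 651 ± 82.2 to 511 ± 21.7 CPM (SD, n = 3), with a log2 change of -0.35 ± 0.12 SE that was not called (edgeR adjusted p = 0.15, and 0.0575 with the passage block). On the TPM scale the groups overlapped (174 to 228 in WT and 153 to 194 in KO). The ratio of Pdgfra to Pdgfrb, both in TPM, was 1.09, 1.54 and 0.847 in WT and 0.558, 0.531 and 0.492 in KO. Every KO library thus had a lower ratio than every WT library. The summed TPM of the 2 receptors was 420.5 to 441.4 in WT and 238.7 to 290.0 in KO.

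**Figure D2:**
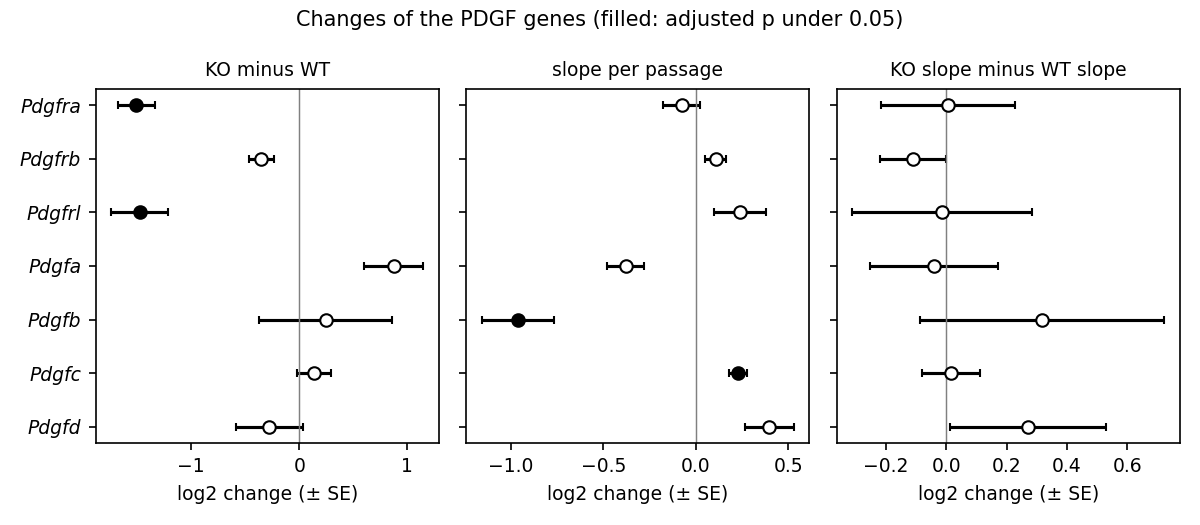
Log2 changes ± SE of the 7 genes for KO minus WT, for the per-passage slope in a fit that also holds genotype, and for the KO slope minus the WT slope. Filled points passed an edgeR adjusted p of 0.05. Pdgfra and Pdgfrl are filled in the first panel, Pdgfb and Pdgfc in the second and no gene in the third.

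Among the ligands only Pdgfa showed separate genotype groups. Pdgfa (ENSMUSG00000025856, chromosome 5, 138976014 to 138997370, minus strand) was at 24.2, 25.3 and 14.6 CPM in the WT libraries of passages 2, 3 and 4. The KO libraries were at 46.9, 43.8 and 27.0 CPM. The KO library was 1.94, 1.73 and 1.85 times the WT library of the same passage. Because both genotypes had their lowest value at passage 4, the lowest KO value was close to the highest WT value. The WT mean was 21.4 ± 5.90 CPM and the KO mean 39.2 ± 10.7 CPM (SD over 3 libraries each). The log2 change was 0.87 ± 0.27 SE, and the gene was not called without the block (edgeR adjusted p = 0.134). With passage as a block the log2 change was 0.88 ± 0.10 SE and the gene was called (adjusted p = 0.00541), and DESeq2 without a block gave adjusted p = 0.0206.

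The Pdgfa count carries a particular uncertainty. The antisense gene 6330403L08Rik covers 813 of the 3119 exon bases of Pdgfa (26.1%), in 3 of its 7 GENCODE transcripts, and it is not stated whether reads were assigned by strand. The antisense gene was at 9.86, 8.72 and 7.99 CPM in WT against 10.4, 11.1 and 10.5 CPM in KO, which is up to 54.8% of the Pdgfa count in a library. Its own log2 change was 0.27 ± 0.14 SE (edgeR adjusted p = 0.306). Its part in the Pdgfa values was not tested. The 2 RefSeq starts of Pdgfa have GC-rich windows before them, with 66.4% and 72.4% GC, and these hold 1 and 2 GC boxes (GGGCGG on either strand).

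The other 3 ligands were not called between genotypes. Pdgfc had a log2 change of 0.13 ± 0.16 SE (edgeR adjusted p = 0.673), Pdgfd of -0.28 ± 0.31 SE (adjusted p = 0.656) and Pdgfb of 0.25 ± 0.62 SE (adjusted p = 0.862). Leaving out 1 library moved these log2 changes to between 0.010 and 0.26 for Pdgfc, -0.54 and -0.036 for Pdgfd and -0.14 and 0.81 for Pdgfb. Pdgfb ranged from 0.662 to 3.404 CPM over the 6 libraries. In a simulation of the genotype comparison on these 16603 genes edgeR recovered 44% of 1.5-fold and 72% of 2-fold changes, so differences of that size could be missed. The simulation took its spread from the fit with passage as a block and held no passage effect. Its recovery may therefore be too high for the fit without the block, which gave the values above.

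The comparison across passages asks which transcripts move as the cultures are replated, and the genes called were ligands. For the slope per passage 2 of the 7 genes were called by edgeR, Pdgfb falling and Pdgfc rising, against 6.25% of all genes tested (3.48% falling and 2.78% rising). The receptors Pdgfra (log2 -0.08 per passage, adjusted p = 0.729), Pdgfrb (0.11, adjusted p = 0.333) and Pdgfrl (0.24, adjusted p = 0.392) were not called. Without 1 library their slopes ran from -0.195 to 0.0343, from 0.047 to 0.152 and from 0.072 to 0.393. Whether receptors and ligands differ in this respect was not tested.

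Pdgfb encodes the ligand by which endothelial cells recruit pericytes (ENSMUSG00000000489, chromosome 15, 79995874 to 80014977, minus strand). Its level was 3.404, 2.08 and 0.662 CPM at passages 2, 3 and 4 in WT. In KO it was 3.35, 2.97 and 1.05 CPM. In both genotypes the passage 4 library was the lowest, and the counts behind these values were 144, 83 and 16 in WT and 93, 207 and 33 in KO. The slope was -0.96 ± 0.20 SE per passage on the log2 scale (edgeR adjusted p = 0.0308). By limma on log2(TPM + 1), which compresses the changes of low genes, it was -0.50. It was not called without the WT library of passage 2 (adjusted p = 0.142), the WT library of passage 4 (0.127) or the KO library of passage 4 (0.165).

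Macrophage markers and several endothelial markers fell over the same passages as Pdgfb. All 11 tested macrophage markers of 12 listed were called by edgeR as falling (median log2 slope -1.44), against 3.48% of all genes. The summed level of the list went from 519.41 to 69.49 TPM in WT and from 353.02 to 62.32 TPM in KO between passages 2 and 4. The summed level of the endothelial list went from 24.72 to 11.12 TPM in WT and from 21.98 to 10.03 TPM in KO. Egfl7, which was not called, held 14.98 of the 24.72 TPM in the WT library of passage 2. Of 8 tested endothelial markers of 10 listed, 4 were called as falling and 0 as rising, against 3.48% and 2.78% of all genes. The median slope was -0.87, and 1 of the 8 had a positive slope. The 4 that fell were Cdh5, Pecam1 and Tie1, each of which lost its call in 3 of the 6 fits without 1 library (either passage 4 library or the WT library of passage 2), and Esam. Esam lost it in all 6 and also by DESeq2 (adjusted p = 0.0655), by limma on log2(TPM + 1) (0.311) and with effective lengths (0.299). Cdh5, the endothelial cadherin gene, had 5.41 and 6.85 CPM at passage 2 and 0.166 and 0.572 CPM at passage 4 in WT and KO. Tie1 and Cldn5 were at 0 counts in both passage 4 libraries. The part of these lists in the Pdgfb values was not tested, and in these bulk samples fewer cells of a type and less RNA per cell cannot be told apart.

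Pdgfc (ENSMUSG00000028019, chromosome 3, 81036416 to 81214040, plus strand) went the other way. Its level was 64.9, 74.8 and 88.1 CPM at passages 2, 3 and 4 in WT. In KO it was 70.1, 82.6 and 97.1 CPM. It was higher at each later passage in both genotypes, and the KO library was 1.08 to 1.1 times the WT library. The slope was 0.23 ± 0.05 SE per passage (edgeR adjusted p = 0.0312). Every fit that left out 1 library gave a slope of 0.22 to 0.23, but only the fit without the WT library of passage 3 kept the call (adjusted p = 0.0266). The other 5 gave 0.0847 to 0.217, and limma on log2(TPM + 1) gave a slope of 0.24 with adjusted p = 0.186. On the TPM scale the WT level was 39.9, 38.0 and 48.7, with passage 3 the lowest.

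The window before the RefSeq start of Pdgfc is shown as the promoter of the ligand that rose with passage (GRCm38.p6, plus strand, chr3:81036166-81036415, GC content 50.8%).
Pdgfc: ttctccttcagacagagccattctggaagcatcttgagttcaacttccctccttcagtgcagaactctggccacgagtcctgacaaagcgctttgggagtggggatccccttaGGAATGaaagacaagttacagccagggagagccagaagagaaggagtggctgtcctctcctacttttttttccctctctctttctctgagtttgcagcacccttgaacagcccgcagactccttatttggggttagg
The capitals mark the only match to the motifs searched, the TEAD letters 137 bases before the start. A match of these letters is a description and not evidence of binding.

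Pdgfd (ENSMUSG00000032006, chromosome 9, 6168584 to 6378850, plus strand) was at 20.5, 38.1 and 29.0 CPM in the WT libraries of passages 2, 3 and 4, and at 15.5, 24.5 and 32.2 CPM in the KO libraries. Passage 2 was the lowest in both genotypes. Its slope was 0.40 ± 0.13 SE per passage (edgeR adjusted p = 0.139, DESeq2 adjusted p = 0.0343). The slope of Pdgfa was -0.38 ± 0.10 SE (edgeR adjusted p = 0.0686, DESeq2 adjusted p = 0.00875). Both were also called by limma on log2(TPM + 1) and by edgeR without a filter or without the WT library of passage 3. The protein-coding gene Ddi1, which lies within Pdgfd on the other strand, had at most 2.37% of its counts.

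The makeup of the ligand transcripts differed between libraries. Of the summed ligand TPM, Pdgfa made up 33.8%, 28.6% and 19.3% in WT and 50.9%, 42.4% and 28.4% in KO at passages 2, 3 and 4. Pdgfc made up 46.3%, 43.6% and 57.3% in WT and 37.1%, 41.2% and 51.1% in KO. Pdgfd held at most 26.4% and Pdgfb 0.482% to 2.58%. The ratio of Pdgfc plus Pdgfd to Pdgfa plus Pdgfb, in TPM, was 1.75, 2.33 and 4.06 in WT and 0.893, 1.27 and 2.45 in KO, so that it was higher at each later passage and lower in KO at each passage. The summed ligand TPM was 85.0 to 87.1 in WT and 104.4 to 124.4 in KO. These shares and sums are descriptions of single libraries, without a test.

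**Figure D3:**
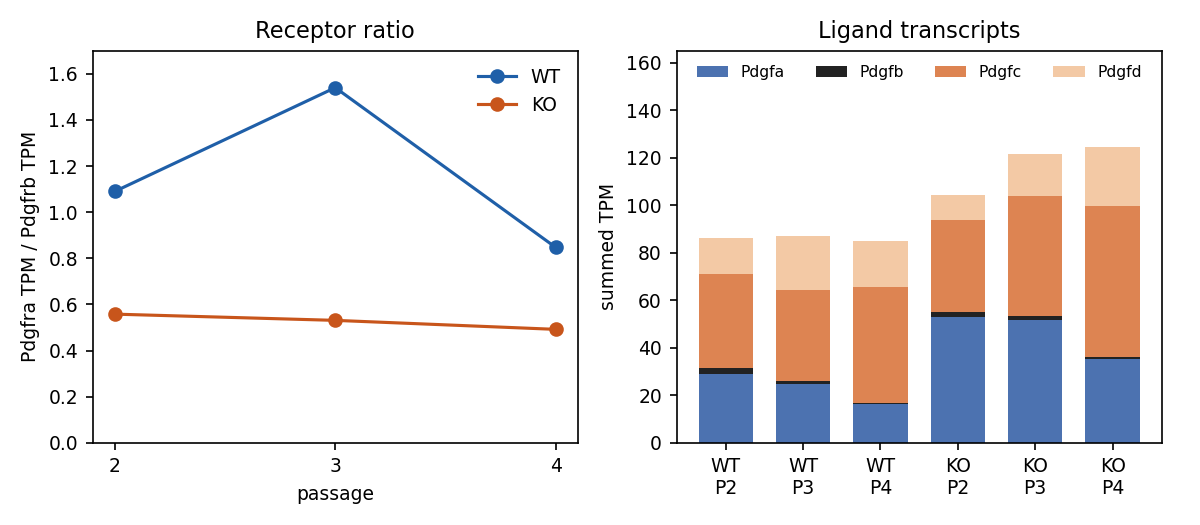
Left, ratio of Pdgfra to Pdgfrb TPM against passage in WT and KO, with each point 1 library. Right, stacked TPM of the 4 ligands in each library. The KO ratios lie between 0.492 and 0.558, below the WT ratios, and Pdgfa forms a smaller part of the bar at passage 4 than at passage 2 in both genotypes.

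The genotypes did not differ in their passage slopes by a margin that the test could call. By edgeR 0 of the 7 genes and 0 of all 16603 genes (0%) were called for the difference between slopes, with 0 of 7 and 1137 of 16603 at an unadjusted p under 0.05. DESeq2 called 83 genes and limma on log2(TPM + 1) called 2, none of them among the 7. The largest differences were those of Pdgfb (log2 0.32 ± 0.40 SE per passage) and Pdgfd (0.27 ± 0.26 SE). In the simulation edgeR recovered 14% of 1.5-fold and 56% of 2-fold differences in slope.

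Genes taken to act beside the receptors were examined as lists. Of 6 genes listed as co-receptors or PDGF-binding proteins, 1 was lower in KO and 0 higher by edgeR, against 1.55% and 0.934% of all genes. The median log2 change was -0.33, against -0.01 over all genes tested. The only gene called was Gas1, a membrane-anchored growth-arrest protein and Hedgehog co-receptor (167 ± 27.8 to 66.4 ± 10.8 CPM, SD, n = 3, log2 -1.33 ± 0.16 SE, edgeR adjusted p = 0.0121). Leaving out either passage 3 library ended the call, with adjusted p up to 0.0821. Whether Gas1 acts on PDGF signalling was not examined. Nrp1, the neuropilin that binds PDGFs and VEGFs, had a log2 change of -0.31 (adjusted p = 0.135) and Lrp1, a large endocytic receptor that associates with PDGFR-beta, of -0.17 (adjusted p = 0.575). With the block 2 of the 6 were lower, against 6.37% of all genes.

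Of 7 tested proteases that process or activate PDGFs (8 listed), 1 rose and 1 fell in KO, against 0.934% and 1.55% of all genes. The median log2 change was 0.10. Plau, the urokinase that can activate PDGF-D, was at 31.9, 36.5 and 39.9 CPM in WT and at 72.4, 81.8 and 65.1 CPM in KO over passages 2, 3 and 4. Every KO library was above every WT library (log2 1.02 ± 0.13 SE, edgeR adjusted p = 0.0146). The call ended when the WT library of passage 2, either passage 3 library or both passage 2 libraries were left out, with adjusted p up to 0.0961. Plat, the tissue plasminogen activator that can activate PDGF-C, averaged 106 ± 12.8 CPM in WT against 87.9 ± 8.18 CPM in KO (SD over 3 libraries, log2 -0.27, adjusted p = 0.251). Pcsk5, a proprotein convertase, fell by 1.46 ± 0.15 SE on the log2 scale (adjusted p = 0.00757), from a mean of 115 ± 21.5 CPM to one of 41.9 ± 3.75 CPM. With the KO library of passage 3 left out the adjusted p was 0.057, and with both passage 2 libraries left out it was 0.0639. Plg, the plasminogen gene, did not pass the filter.

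The signalling proteins that dock on the activated receptors were not called between genotypes. By edgeR 0 of 26 tested genes passed (27 listed), against 2.48% of all genes, and DESeq2, limma and the block also called 0. At an unadjusted p under 0.05 there were 2 of the 26, against 3543 of 16603 genes. The median log2 change was -0.10. With passage DESeq2 called 6 of the 26, against 10.3% of all genes, and limma 3, against 7.40%. By edgeR 2 of the 26 rose and 0 fell, near the 6.25% called over all genes. Pik3r3, a regulatory subunit of PI3 kinase, was 1 of them (log2 0.42 per passage, edgeR adjusted p = 0.0312), and it lost its call without any single library other than the WT library of passage 3.

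Of 16 negative regulators 1 rose and 0 fell in KO, with a median of 0.03, against 2.48% of all genes called, and limma on log2(TPM + 1) called 0 of the 16. Rasa1, the Ras GTPase-activating protein that binds phosphorylated PDGFR-beta, rose from 106 ± 15.5 to 169 ± 11.1 CPM (SD, n = 3, log2 0.66 ± 0.13 SE, edgeR adjusted p = 0.0418). The call held in only 1 of the 6 fits without 1 library, that without the WT library of passage 4, and adjusted p reached 0.23 in the others. With all 6 libraries it was also lost by limma on log2(TPM + 1) (adjusted p = 0.0762) and with effective lengths as offsets (0.101). With the block 2 were higher and 1 lower, against 11.1% of all genes. With passage, where 6.25% of all genes were called, 2 fell, the receptor-type phosphatase gene Ptprj (log2 -0.37, adjusted p = 0.0444) and Ptpn6, a phosphatase gene of blood cells (-0.97, adjusted p = 0.0146), and 0 rose. Ptprj lost its call in 4 of the fits without 1 library and by limma on log2(TPM + 1) (adjusted p = 0.131), and Ptpn6 in 3.

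In the neighbouring families of VEGF ligands and of receptors related to PDGFRs, 1 of 13 tested genes fell in KO (14 listed, median 0.10), against 2.48% of all genes called. It was Flt1, encoding VEGF receptor 1, at 214, 261 and 239 CPM in the WT libraries and 152, 93.8 and 106 CPM in the KO libraries (log2 -1.02 ± 0.19 SE, edgeR adjusted p = 0.0382). Its call was lost without any single library other than the KO library of passage 2, and with effective lengths as offsets (log2 -0.95, adjusted p = 0.0629). With the block 3 fell and 1 rose, against 11.1% of all genes. With passage 2 rose and 2 fell, against 6.25% of all genes. Vegfd, a lymphatic growth factor gene, rose (log2 0.50 per passage, adjusted p = 0.00732), as did Csf1, the macrophage growth factor gene (0.30, adjusted p = 0.0495). The fallers were Csf1r, the receptor of CSF1 and a macrophage gene (-0.98, adjusted p = 0.00163), and Kit, at no more than a mean of 1.11 CPM in either genotype (-1.11, adjusted p = 0.0293). Csf1r alone kept its call in all 6 fits without 1 library. Vegfd lost it in 2, Csf1 and Kit in 5 each. Csf1 also lost it with DESeq2 size factors (adjusted p = 0.0542). The Kit slope was -0.75 with effective lengths (adjusted p = 0.317) and -0.19 by limma on log2(TPM + 1) (adjusted p = 0.292), neither of them called.

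**Figure D4:**
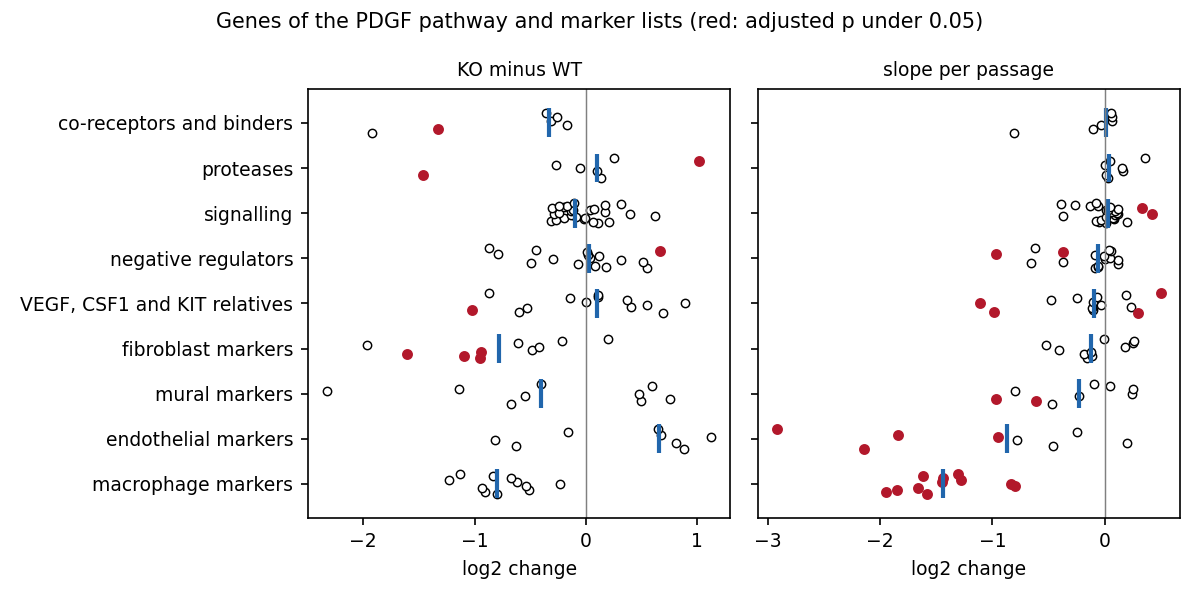
Log2 changes of each tested gene of the pathway lists, the related families and the 4 marker lists, for KO minus WT and for the slope per passage. Red points passed an edgeR adjusted p of 0.05 and blue bars are list medians. The fibroblast list has a median of -0.78 on the left, and the macrophage list one of -1.44 on the right.

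Of 10 fibroblast markers 4 fell in KO by edgeR and 0 rose, against 1.55% and 0.934% of all genes tested, and the median log2 change was -0.78. They were Col1a1 (log2 -0.95, adjusted p = 0.0362), Col1a2 (-1.09, adjusted p = 0.0187), Col3a1 (-1.61, adjusted p = 0.0171) and Dcn, the decorin gene (-0.94, adjusted p = 0.037). With the block 6 fell, against 6.37% of all genes. Each of the 4 lost its call in 3 to 5 of the 6 fits without 1 library. Vim, by contrast, was at 1870 to 2082 CPM in WT against 2103 to 2352 CPM in KO (log2 0.20, adjusted p = 0.334). Of 9 tested mural-cell markers (10 listed) 0 were called between genotypes by edgeR and 0 by limma. DESeq2 called 2 of the 9, against 1661 of 16603 genes. With the block 2 were higher and 1 lower in KO, against 4.69% and 6.37% of all genes. At an unadjusted p under 0.05 by edgeR there were 4 of the 9, against 3543 of 16603 genes. The mural marker Higd1b was at 0 counts in all 6 libraries. The summed mural level was 101.1 to 247.45 TPM in WT and 110.44 to 162.66 TPM in KO. Of it Ndufa4l2 (edgeR adjusted p = 0.104 between genotypes) held 134.22, 162.28 and 32.74 TPM in WT at passages 2, 3 and 4. In KO Ndufa4l2 held 31.85, 26.37 and 13.63 TPM. With passage 2 of the 9 tested mural markers fell and 0 rose by edgeR, against 3.48% and 2.78% of all genes. The median slope was -0.23, and 3 of the 9 had a positive slope. Cspg4, the NG2 proteoglycan gene that marks pericytes together with Pdgfrb, was 1 of the 2 that fell (log2 -0.61 per passage, edgeR adjusted p = 0.00353). Des, the desmin gene, fell as well (-0.96, adjusted p = 0.0368), but not without the KO library of passage 2 or either passage 4 library. The median log2 change in KO was -0.80 for macrophage markers and 0.66 for endothelial markers, with 0 of 11 and 0 of 8 called by edgeR, DESeq2 and limma. The block called 3 macrophage markers as lower, against 6.37% of all genes. At an unadjusted p under 0.05 the counts were 0 of the 11 and 1 of the 8, against 3543 of 16603 genes. The part of these lists in the receptor values was not tested.

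For each of the 7 genes the protein-coding genes whose log2 CPM followed it most closely over the 6 libraries were listed, among the 5403 or 5404 whose mean log2 CPM reached 5. Pdgfra was most like Tmem39a (Pearson r 0.997) and Kdelr1 (0.995), a receptor that returns proteins to the endoplasmic reticulum. Their own differences were small beside that of Pdgfra: Tmem39a ranged from 53.6 to 60.1 CPM in WT and from 42.2 to 44.03 CPM in KO. Pdgfrl was most like Ephb4 (0.998) and Snapin (0.996). Pdgfrb was most like Aebp1 and Fbln2, both genes of extracellular matrix proteins (0.988 each). Pdgfa was most like H2afy (0.992), at 55.3 to 65.6 CPM in WT and 66.7 to 81.9 CPM in KO. Pdgfb was most like Rtn3 (0.987) and Ncapg (0.986), Pdgfc most like Galnt18 (0.996) and Ypel5 (0.989), and Pdgfd most like Tsc22d1 (0.988). With 6 libraries that share genotype and passage such values are common: 308 genes had an r above 0.9 with Pdgfra and 62 with Pdgfa. They describe these libraries only.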

How the data were processed

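RNA-seq of 6 libraries was analysed. Per the submitters' processing notes, the authors trimmed reads with Trimmomatic 0.39 and quantified them with RSEM on GRCm38. For the RSEM version, annotation release and strand setting the sources used here give nothing. The deposited tables hold expected counts, in which RSEM shares ambiguous reads among genes (12.0% to 15.8% of values were not whole), with TPM, FPKM (not used) and effective lengths per the file headers. Of 55487 Ensembl genes 55227 (99.5%) matched GENCODE M21. Read in the sense direction, no 64-base word of the 7 genes' transcripts occurs in another gene's (0% shared). Reverse complements were not compared, so the exon overlap of Pdgfa with the antisense gene 6330403L08Rik is not counted in this share.

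Counts were rounded, filtered (minimum count 10, by genotype, 16603 genes) and tested with edgeR 4.0.16 (TMM, robust quasi-likelihood, 2-sided, R 4.3.3) with Benjamini-Hochberg adjustment over all genes tested and calls under 0.05. The fits were genotype alone, a slope per passage with genotype, and their interaction. Alternatives used DESeq2 1.42.0, limma 3.58.1 on log2(TPM + 1), other scalings and filters, and left-out libraries. The edgeR fits were tested on simulated data. Libraries of the same passage deviated together from their genotype means (r = 0.49, 0.14 and 0.42 at passages 2, 3 and 4), so an alternative genotype fit took passage to pair them. The main genotype fit and those with left-out libraries had no block. Values with the block are given where they change a call.

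Members and lists were chosen with earlier results of these data known. Named from the lists were called genes (at most 6 a list, by p), Nrp1, Lrp1, Plat and Plau, and a few others for their level. The 9 lists and their 113 genes were co-receptors and binders, proteases, receptor-proximal signalling, negative regulators, related families, and fibroblast, mural, endothelial and macrophage markers. Likeness was the Pearson r of log2 CPM (prior count 2) over the 6 libraries, with up to 2 genes named for each member. A few genes that this rule or the lists select are not reported here. Promoter windows are from RefSeq (GRCm38.p6), with 4 of the 7 genes matched.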

Additional observations from a re-analysis of the deposited data

How the results depend on the processing

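The genotype changes of Pdgfra and Pdgfrl and the passage slopes of Pdgfb and Pdgfc kept their sign under every alternative run, although each lost its call in some. Of 252 values of the 7 genes under alternatives, 200 kept direction and side of the threshold, 18 lost and 11 gained a call and 23 changed sign, of which 19 belonged to the difference between slopes. The genotype count of 412 genes was 1661 by DESeq2, 846 without a filter, 1835 with the replicate block (passage), 59 without both passage 2 libraries and 0 by the genotype tag (602 at an unadjusted p under 0.05), which sets 1 KO library against 5. All 412 calls were kept with the same sign under the block. Under the tag Pdgfra had a log2 change of -0.98 and Pdgfrl of -1.25 (both adjusted p = 0.873), Pdgfc -0.22 and Lrp1 0.21. Leaving out 1 library gave 38 to 847 genes (109, 45 and 847 for the WT libraries and 206, 38 and 230 for the KO libraries of passages 2, 3 and 4). For passage the count of 1038 was 1709 by DESeq2, 2443 without a filter and 278 to 1286 without 1 library. For the difference between slopes the count of 0 was 83 by DESeq2, 289 without a filter, 2 by limma on TPM and 0 to 10 without 1 library. Limma on TPM split the genotype calls into 219 higher and 168 lower, against 155 and 257 by edgeR.

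Without 1 library the genotype change of Pdgfb ranged from -0.14 to 0.81 and the slope of Pdgfra from -0.195 to 0.0343. The difference between slopes ranged from -0.60 to 0.56 for Pdgfra, -0.80 to 0.73 for Pdgfrl, -0.50 to 0.38 for Pdgfa, -0.37 to 0.96 for Pdgfb, -0.0149 to 0.0180 for Pdgfc and -0.41 to 0.90 for Pdgfd. It was -0.0047 for Pdgfra with DESeq2 size factors and -0.0046 by DESeq2, 0.0874 for Pdgfrb, 0.18 for Pdgfrl and 0.11 for Pdgfa by limma on TPM, and 0.0082 for Pdgfrl with effective lengths. The cause was not tested. In fits without 1 library an arm of a genotype keeps 2 libraries.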
